A study of Arabidopsis thaliana with 9 samples.

Results

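Leaf transcripts of Arabidopsis thaliana plants lacking the NADPH oxidase RBOHF were compared with those of plants lacking its relative RBOHD, with both lines also lacking the catalase CAT2. The comparison took 6 of the 9 Affymetrix arrays, the 3 titled cat2-2 atrbohF and the 3 titled cat2-2 atrbohD, over all probe sets other than the array's controls. Of 22746 such probe sets, 13888 were bright enough to be tested. Below, the lines are named by their genotype labels, cat2 rbohF and cat2 rbohD, and a difference is the log2 value in cat2 rbohF minus that in cat2 rbohD unless another pair is named.

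All plants were of the Columbia-0 background and carried the cat2-2 mutation, so nothing measured here is relative to a plant with CAT2, and no wild-type array was analysed here. The remaining 3 arrays, of cat2 plants with both oxidases, enter the fit for the estimate of spread and serve as the common reference. The titles give no allele for either oxidase mutation. Plants were 3 weeks old and had grown in air under days of 16 h light at 200 µmol per square metre per second. Each array held RNA from leaves pooled over at least 8 plants, and the labels call the 3 arrays of a genotype biological replicates.

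RBOHD and RBOHF are plasma membrane enzymes that take electrons from cytosolic NADPH and make superoxide outside the cell, from which hydrogen peroxide forms in the cell wall. CAT2 is the main leaf catalase and removes the hydrogen peroxide that photorespiration makes inside peroxisomes. Textbook accounts give RBOHD the main part in the rapid oxidative burst of immunity and RBOHF shared parts in abscisic acid responses, cell death and the cell wall. In the cat2 background, setting one loss against the other asks whether the leaf transcripts respond to which of the oxidases is absent.

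In pooled leaves, fewer cells of a type and less RNA per cell cannot be told apart. Genes of light capture and carbon fixation marked the material as green leaf. RCA, which activates the carbon-fixing enzyme Rubisco, lay between 14.14 and 14.19 on all 6 arrays on the log2 scale, with a difference of 0.01 (95% interval -0.13 to 0.16). LHCB4.1, a light-harvesting protein of photosystem II, lay between 13.52 and 13.68. PYK10, a beta-glucosidase best known from roots, was measured at 8.11, 7.83 and 8.07 in cat2 rbohD and at 9.17, 8.71 and 9.01 in cat2 rbohF. The difference of 0.96 in this marker was not called (adjusted p = 0.0717), and its part in the results below was not tested. No marker of vasculature, epidermis, dividing cells or flowers could be tested.

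No probe set is annotated here as RBOHD, RBOHF or CAT2, so the genotype labels could not be checked against the transcripts of the mutated genes. Of the list of NADPH oxidases and catalases, 3 loci had a named probe set, AT1G19230, AT4G25090 and AT4G11230, which lay between 3.16 and 3.92 on all 9 arrays, under the 5.14 needed to be tested. Among the 10 genes on each side of the mutated loci, 5 were tested near RBOHD and 3 near RBOHF, and none was called, with differences from -0.12 to 0.10 and from -0.12 to 0.21.

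The cat2 rbohD arrays were less alike than the cat2 rbohF arrays. Mean variance within the group was 0.0502 in cat2 rbohD and 0.0212 in cat2 rbohF. The first principal component of the 6 arrays held 50.8% of the variance and placed cat2 rbohD replicates 1, 2 and 3 at -25.2, -18.9 and 0.3, and the cat2 rbohF replicates at 18.9, 6.4 and 18.5. Replicate 3 of cat2 rbohD therefore stood apart from its group. It correlated with the cat2 rbohF arrays at 0.983 to 0.988 and with the other cat2 rbohD arrays at 0.977 and 0.983, whereas the cat2 rbohF arrays correlated with each other at 0.991 to 0.994. Some results below are also given without it, while the contrasts with cat2 and the position of cat2 are given only with it. The array was singled out after these values were seen. Because it lay toward cat2 rbohF, a call gained without it is no independent support.

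Between the lines, 267 probe sets (1.92% of those tested) differed at an adjusted p under 0.05 by limma. Of these, 120 (0.864%) were higher and 147 (1.06%) were lower in cat2 rbohF. The differences were small: the median size among the called probe sets was 0.59 on the log2 scale, or 1.51-fold. Only 32 (0.230%) reached 2-fold, 15 of them higher and 17 lower. The median difference over all tested probe sets was -0.002. At an unadjusted p under 0.05 stood 3090 probe sets (22.2%), and 3605 (26.0%) had groups that did not overlap, among them all 267 called.

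**Figure D1:**
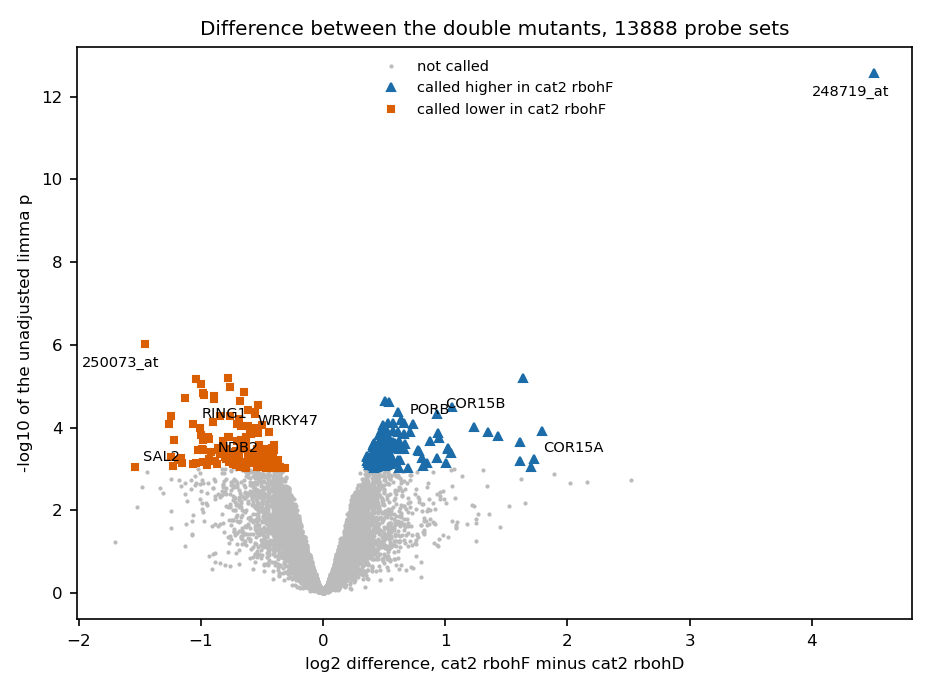
Each point is 1 tested probe set, with the log2 difference between cat2 rbohF and cat2 rbohD on the x axis and the -log10 of its unadjusted limma p on the y axis (n = 3 arrays a genotype). The 120 called higher and 147 called lower form a narrow band above the rest, and only the unnamed probe sets 248719_at and 250073_at stand clear of it.

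Nearly all of these calls were close to the threshold. Only 2 probe sets had an adjusted p under 0.01 and 26 under 0.03, while 1201 lay under 0.1. The number of calls depended on single arrays. It was 1 without cat2 rbohF replicate 1, 8 without replicate 3 and 262 without replicate 2. It was 4 and 3 without cat2 rbohD replicates 1 and 2, and 1065 without replicate 3, of which 390 were higher and 675 lower and which held all 267. Leaving out cat2 replicates 1, 2 and 3 gave 39, 107 and 74 calls, and fitting the 6 compared arrays without cat2 gave 2. The single probe set called without each array in turn was 248719_at.

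**Figure D2:**
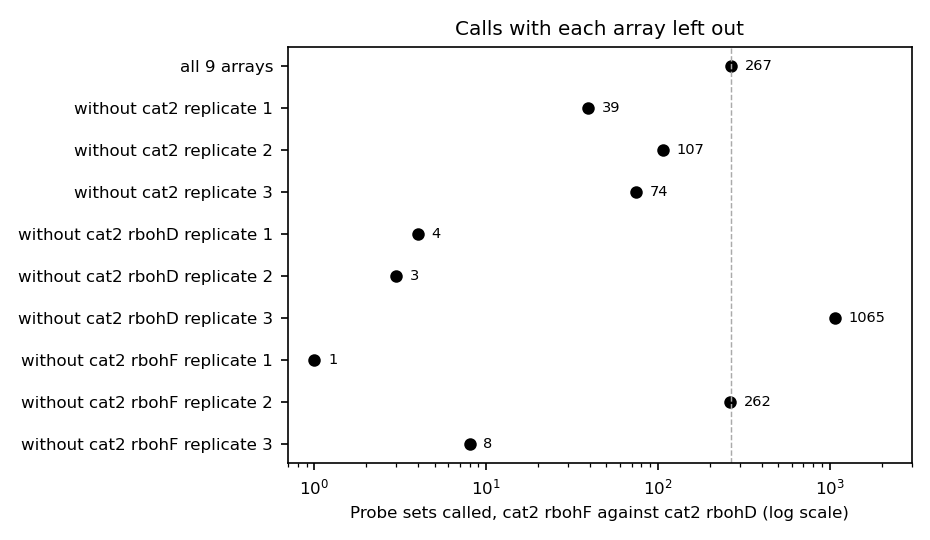
The number of probe sets called between cat2 rbohF and cat2 rbohD (log scale, x axis) with all 9 arrays and with each array left out in turn. The count runs from 1 without cat2 rbohF replicate 1 to 1065 without cat2 rbohD replicate 3, against 267 (dashed line) with all arrays.

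The largest difference belonged to 248719_at, which the annotation does not name. Whether this probe set measures the transcript of a mutated gene could not be checked here. It therefore cannot be taken for a response to the mutation. 248719_at read 4.43, 4.38 and 4.50 in cat2 rbohD and 8.85, 9.02 and 8.97 in cat2 rbohF. All cat2 rbohD arrays were dim, under the 5.14 set for testing, while cat2 itself read 9.64, 9.47 and 9.64. The difference was 4.51 ± 0.08 (SE), or 22.7-fold (adjusted p = 3.72e-09), and values so near the array's floor leave its true size uncertain. A second unnamed probe set, 250073_at, was lower in cat2 rbohF, at 8.98, 8.67 and 9.16 against 10.42, 10.25 and 10.53 in cat2 rbohD. Its groups lay over 1 log2 unit apart, with a difference of -1.46 ± 0.13 (adjusted p = 0.00646). That call was lost without cat2 rbohF replicate 1 (adjusted p = 0.0644) and in the fit of the 6 compared arrays alone. The second largest unnamed rise was in 253660_at, 1.79 (adjusted p = 0.0324), and the second largest unnamed fall in 255341_at, with a difference of -1.26 (adjusted p = 0.032). Both of these were lost without 5 of the 9 arrays, among them replicates 1 and 2 of cat2 rbohD and 1 and 3 of cat2 rbohF, with adjusted p up to 0.166.

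Among called genes with a name in the annotation, COR15A of the cold response had the largest rise in cat2 rbohF. COR15A and its neighbour COR15B encode chloroplast proteins that accumulate in the cold and protect membranes during freezing. COR15A read 6.53, 6.85 and 6.89 in cat2 rbohD and 8.79, 7.54 and 9.12 in cat2 rbohF. The groups did not overlap, although replicate 2 of cat2 rbohF lay nearer to cat2 rbohD than to the other cat2 rbohF arrays. COR15A was higher by 1.73 ± 0.34 (SE), or 3.31-fold (adjusted p = 0.0445). COR15B read 5.66, 5.85 and 5.73 against 6.87, 6.36 and 6.81, again with replicate 2 the lowest of cat2 rbohF, a rise of 0.93 ± 0.13 (adjusted p = 0.0282). In cat2 the means were 6.97 for COR15A and 5.80 for COR15B, close to those of cat2 rbohD.

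The remaining tested members of the cold list were the dehydrins LTI30 and COR47, hydrophilic proteins that accumulate when cells lose water. LTI30 read 6.30, 6.68 and 7.03 in cat2 rbohD and 8.70, 7.23 and 9.03 in cat2 rbohF, with a difference of 1.65 that was not called (adjusted p = 0.0893). COR47 overlapped between the groups and differed by 0.56 (adjusted p = 0.166). So 2 of the 4 tested members were called higher, beside 0.864% of all tested probe sets, and the median difference was 1.29 beside -0.002 for all. The lists were chosen with earlier results of these data known, so these figures describe the members and test nothing. COR15A and COR15B are also neighbours that may share probe signal, which was not tested. COR15A kept its call without cat2 rbohD replicate 3 or cat2 rbohF replicate 2 and lost it without each of the other 7 arrays (adjusted p up to 0.189). COR15B lost its call without 4 arrays, replicates 1 and 2 of cat2 rbohD and 1 and 3 of cat2 rbohF (adjusted p up to 0.166). Without cat2 rbohD replicate 3, COR47 also passed (adjusted p = 0.0311), where 2.81% of all tested probe sets were called higher.

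Lysine breakdown was represented by AT4G33150, whose RefSeq synonyms give lysine-ketoglutarate reductase/saccharopine dehydrogenase, the double enzyme that opens lysine catabolism. It read 6.63, 5.89 and 6.73 in cat2 rbohD and 8.05, 7.53 and 8.49 in cat2 rbohF. Every cat2 rbohF array exceeded every cat2 rbohD array, with a rise of 1.61 ± 0.28, or 3.05-fold (adjusted p = 0.0364). Without 6 of the 9 arrays this call was lost as well (adjusted p up to 0.174). The other large rises were in genes that the annotation gives by locus code alone. They were AT3G28220 (1.70), AT1G62510 (1.61), AT5G62360 (1.43), AT2G43550 (1.24), AT5G44050 (1.06), AT1G22570 (1.02), AT2G36885 (0.94), AT2G39920 (0.93) and AT1G27030 (0.88). Among these the adjusted p ran from 0.0241 for AT5G44050 to 0.0495 for AT3G28220, and each call was lost without at least 4 arrays.

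Of 22 called genes with a symbol beyond a locus code, 13 rose. They were picked out after their values were seen and are ordered here by their known roles, and this order is no test of any role. PORB, which makes the light-dependent reduction of protochlorophyllide on the way to chlorophyll, read 10.85, 10.92 and 10.72 in cat2 rbohD and 11.50, 11.38 and 11.54 in cat2 rbohF. Replicates were tight in both lines and the groups lay well apart, with a rise of 0.64 ± 0.10, or 1.56-fold (adjusted p = 0.032). In cat2 the PORB mean was lower still, 10.24, so that cat2 rbohD lay between cat2 and cat2 rbohF. HEME1, a decarboxylase of the tetrapyrrole pathway that leads to heme and chlorophyll, rose by 0.37 (adjusted p = 0.0449). NOL, a chlorophyll b reductase that acts in chlorophyll breakdown, also rose by 0.37 (adjusted p = 0.0467). Genes of chlorophyll synthesis and of its breakdown were thus both among the rises.

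Others of the 13 act in the plastid. CYTC6A, a cytochrome of the thylakoid lumen, rose by 0.70, with values of 6.47, 6.92 and 6.70 in cat2 rbohD and 7.50, 7.13 and 7.57 in cat2 rbohF. DPE1, a plastid enzyme of starch breakdown, rose by 0.57, from 7.08, 6.86 and 7.03 to 7.67, 7.45 and 7.56. In both genes replicate 2 was the lowest of cat2 rbohF and still lay above every cat2 rbohD array. CHL, the chloroplastic lipocalin that protects thylakoid lipids, rose by 0.51. LSMT-L, a protein lysine methyltransferase of the chloroplast, rose by 0.50, CRR21, a pentatricopeptide repeat protein needed for editing a plastid transcript, by 0.46, and MAP1C, an organellar methionine aminopeptidase, by 0.43. Adjusted p for these 6 ran from 0.0324 for LSMT-L to 0.0497 for CYTC6A.

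The photosynthesis list itself held no call among its 3 tested members, with differences from 0.01 for RCA to 0.13 for PRK, which regenerates the carbon dioxide acceptor. Photorespiration held none among 4, with differences from 0.07 to 0.23. Its members AT1G11860 and AT1G32470 had groups that did not overlap, with differences of 0.23 and 0.22 (adjusted p = 0.208 and 0.145). Since 1.92% of all tested probe sets were called, no call among so few genes, here and below, says little about a list. The calls of the chlorophyll and plastid genes of the preceding paragraphs were lost without 4 arrays for PORB, without 5 for LSMT-L and CRR21, and without 7 or 8 for the rest (adjusted p up to 0.199).

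The last of the 13 were glycosidases. BGLU44, a beta-glucosidase, read 9.89, 10.28 and 9.95 in cat2 rbohD and 11.03, 10.51 and 10.95 in cat2 rbohF, a rise of 0.79 ± 0.15 (adjusted p = 0.0395). BGLU15 rose by 0.63 (adjusted p = 0.0449) at a low level. It entered the test only through cat2 rbohF, at 5.43, 5.40 and 5.68, while every cat2 and cat2 rbohD value was 5.01 or less, so its call supports no count over the family. BGLU45, whose enzyme acts on monolignol glucosides, read 5.51, 5.79 and 5.57 against 6.35, 6.09 and 6.59, without overlap, and its difference of 0.72 just missed (adjusted p = 0.0537). Its cat2 mean was higher than both, 6.92. Against cat2 it was called lower in cat2 rbohD (-1.3, adjusted p = 0.0151) and in cat2 rbohF (-0.58, adjusted p = 0.0399). BGLU44 lost its call without 7 arrays and BGLU15 without 8 (adjusted p up to 0.177).

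**Figure D3:**
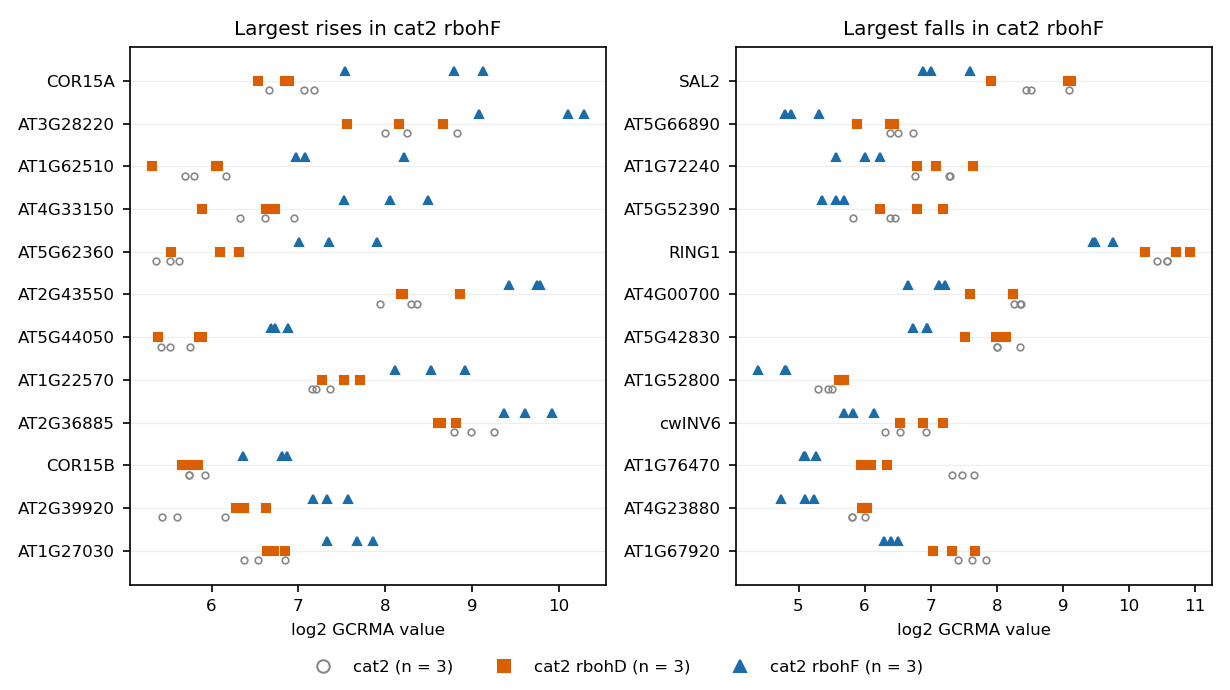
Log2 GCRMA values (x axis) on each of the 9 arrays for the 12 largest rises (left) and the 12 largest falls (right) among called genes, with cat2 as open circles, cat2 rbohD as squares and cat2 rbohF as triangles, 3 arrays each. In every row the triangles lie on one side of all squares, and in most rows the circles lie among or near the squares, as for COR15A (cat2 mean 6.97) and not for AT1G76470 (cat2 mean 7.49).

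Falls in cat2 rbohF were led by SAL2, a relative of the phosphatase SAL1. It read 9.12, 9.08 and 7.91 in cat2 rbohD and 7.01, 7.59 and 6.88 in cat2 rbohF. Replicate 3 of cat2 rbohD lay nearer to cat2 rbohF than to its own group, yet above all of cat2 rbohF. SAL2 fell by 1.54 on the log2 scale (SE 0.33), or 2.91-fold (adjusted p = 0.0491), and the difference without that replicate was -1.94 (adjusted p = 0.00587). Leaving out this lowest value of cat2 rbohD could only enlarge the fall, and that fit called 4.86% of all tested probe sets lower. RING1, a RING-finger ubiquitin ligase tied to programmed cell death, read 10.93, 10.71 and 10.24 against 9.46, 9.76 and 9.49. Its groups did not overlap and it fell by 1.06 (SE 0.16; adjusted p = 0.032). cwINV6, a fructan exohydrolase despite its name as a cell wall invertase, fell by 0.98 (adjusted p = 0.0465). SAL2 and cwINV6 lost their calls without 7 arrays and RING1 without 5 (adjusted p up to 0.199).

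NDB2, an NAD(P)H dehydrogenase of the outer face of the inner mitochondrial membrane, was the single called member of the mitochondrial stress-response list. It read 9.38, 9.22 and 8.67 in cat2 rbohD and 7.91, 8.40 and 8.16 in cat2 rbohF. Replicate 3 of cat2 rbohD was again the lowest of its group, and the groups did not overlap. NDB2 fell by 0.93 (SE 0.18; adjusted p = 0.0445), and without that replicate the difference was -1.14 (adjusted p = 0.0073). Here too the omission could only enlarge the fall, in a fit that called 4.86% of all tested probe sets lower. Of the 3 tested list members 1 was called lower, beside 1.06% of all, in a list chosen with earlier results of these data known. AT5G51440 had the largest negative difference of any tested probe set, -1.70, but its cat2 rbohD values, from 5.2 to 7.94, overlapped those of cat2 rbohF at 4.50, 5.24 and 4.37 (adjusted p = 0.245). The third member, AT2G21640, differed by 0.09. NDB2 kept its call only without cat2 rbohD replicate 3 or cat2 rbohF replicate 2 and otherwise reached an adjusted p of up to 0.186.

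The other called falls with a symbol were smaller. WRKY47, a transcription factor, read 7.58, 7.47 and 7.37 in cat2 rbohD and 6.76, 7.03 and 6.83 in cat2 rbohF, without overlap, and fell by 0.60 (adjusted p = 0.0324). GLR2.8, a glutamate receptor-like channel, fell by 0.77 to a mean of 4.52, under the value set for testing. It passed the filter at its edge and only through cat2 and cat2 rbohD, with values from 5.10 to 5.66. ALDH2C4, an aldehyde dehydrogenase that makes ferulate and sinapate, fell by 0.54. TY1, the plastid thioredoxin y1, fell by 0.47 and MAMI by 0.40. These 5 calls were lost without 5 arrays for WRKY47 and 7 or 8 for the others (adjusted p up to 0.194).

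The remaining large falls belonged to genes known here by locus code alone, AT5G66890 (-1.24), AT1G72240 (-1.24), AT5G52390 (-1.19), AT4G00700 (-1.02), AT5G42830 (-1.01), AT1G52800 (-1.0), AT1G76470 (-0.98), AT4G23880 (-0.97) and AT1G67920 (-0.94). AT1G52800, AT1G76470 and AT4G23880 had the smallest adjusted p, 0.0204 each. AT1G52800 read 5.61, 5.68 and 5.69 in cat2 rbohD and 4.79, 4.81 and 4.38 in cat2 rbohF, which is near the floor of the array. AT1G76470 read 5.94, 6.10 and 6.34 against 5.26, 5.10 and 5.09. It was also called lower in both double mutants than in cat2, with differences of -1.36 in cat2 rbohD (adjusted p = 0.00228) and -2.34 in cat2 rbohF (adjusted p = 6.06e-05). Each of the 9 calls was lost without at least 3 arrays (adjusted p up to 0.18).

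Of the salicylic acid synthesis and signalling list, 5 genes were tested and none was called. Their differences were all negative, with a median of -0.73 beside -0.002 for all tested probe sets. This list too was chosen with earlier results known, so the median is a description and no test. WRKY53, a transcription factor of defence and leaf senescence, read 8.45, 7.97 and 7.26 in cat2 rbohD and 6.42, 7.14 and 6.65 in cat2 rbohF. The closest values, 7.26 and 7.14, came from replicate 3 of cat2 rbohD and replicate 2 of cat2 rbohF, and the difference was -1.16 (adjusted p = 0.0646). GRX480, a glutaredoxin that binds TGA transcription factors, read 8.00, 8.35 and 8.18 against 7.68, 7.82 and 7.74 and differed by -0.43 (adjusted p = 0.0593). AT5G52810 differed by -0.73 (adjusted p = 0.0648). UGT76B1, a glucosyltransferase acting on isoleucic acid, differed by -1.07 with overlapping groups (adjusted p = 0.199). SAG101, a partner of the immune regulator EDS1, differed by -0.31. Without cat2 rbohD replicate 3 the adjusted p was 0.0117 for WRKY53, 0.0121 for AT5G52810 and 0.0456 for UGT76B1, so that 3 of the 5 then passed, in a fit that called 4.86% of all tested probe sets lower (7.67% in either direction).

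None of the 3 tested genes of endoplasmic reticulum folding was called, and all had negative differences. BZIP60, which drives the unfolded protein response of the endoplasmic reticulum, read 9.97, 9.75 and 9.43 in cat2 rbohD and 8.98, 9.22 and 9.15 in cat2 rbohF. The groups did not overlap, and the difference of -0.60 lay at the edge of the threshold (adjusted p = 0.0503). BZIP28, its membrane-bound counterpart, differed by -0.31 (adjusted p = 0.0816), and ATERDJ3B, a folding helper in the lumen, by -0.33. Without cat2 rbohD replicate 3, BZIP60 (adjusted p = 0.00975) and ATERDJ3B (0.0216) passed. AT5G48570, for which RefSeq lists FKBP65 and ROF2 and which is heat-induced, read 7.14, 7.01 and 5.97 against 5.11, 5.89 and 4.55. Its difference of -1.52 (adjusted p = 0.0984) was larger than any other in the heat list, whose second tested member HSA32 differed by -0.06, and it too passed without that array (adjusted p = 0.04), where 4.86% of all tested probe sets were called lower. STZ, a zinc-finger repressor induced by oxidative stress, differed by -0.75 (adjusted p = 0.133), and GSTU25, a glutathione transferase, by -0.56 with overlapping groups.

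**Figure D4:**
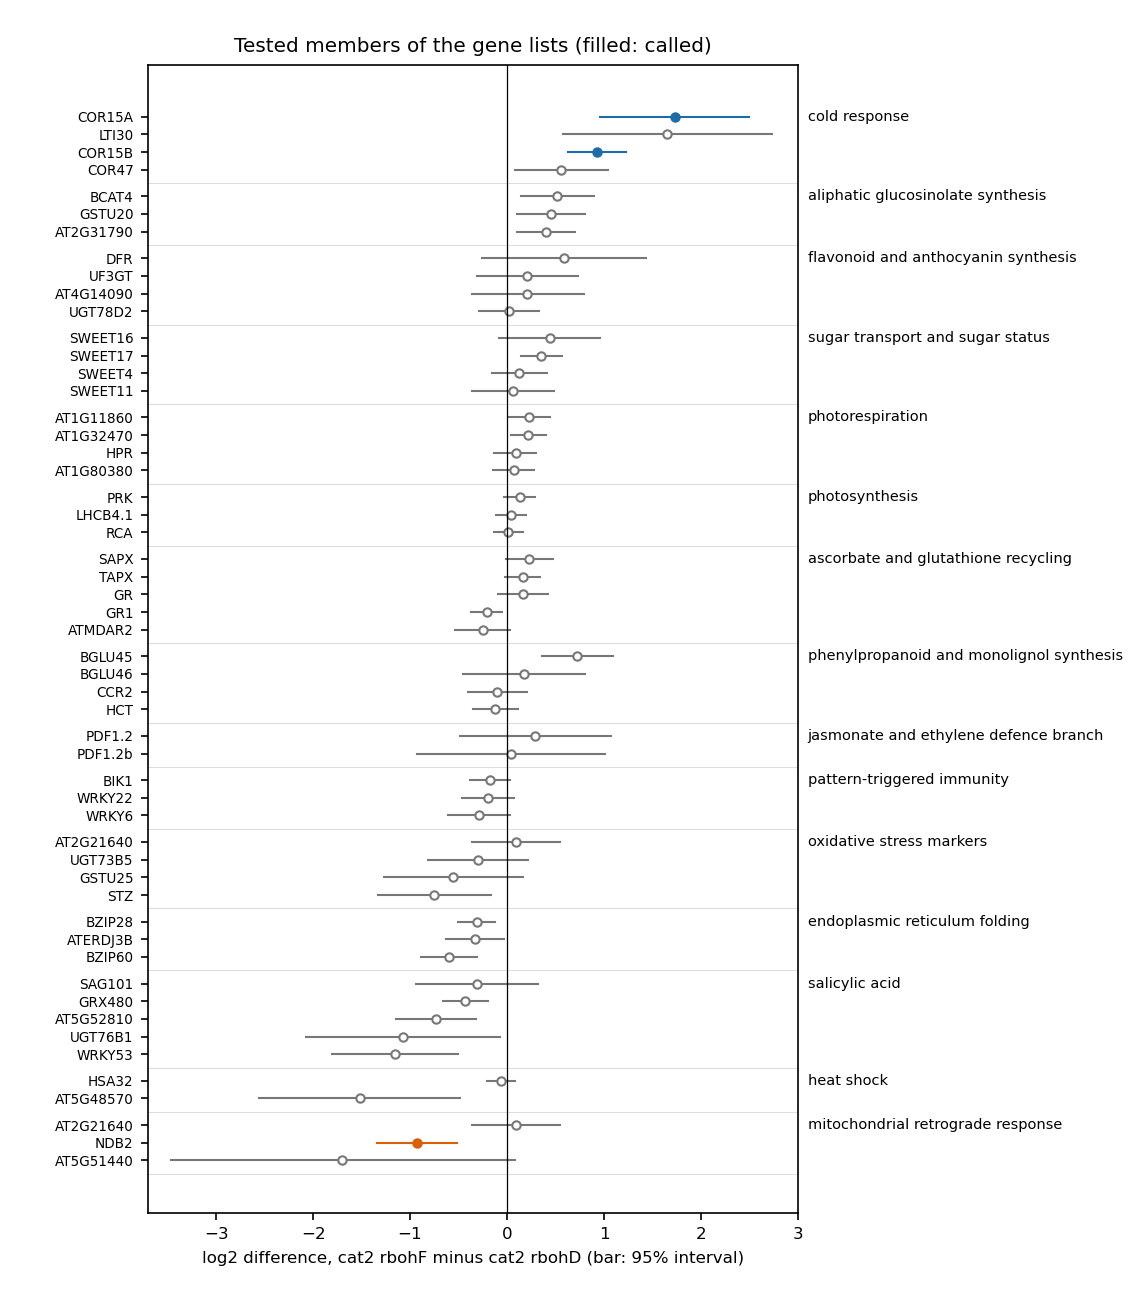
Log2 difference (cat2 rbohF minus cat2 rbohD) with its 95% interval for the tested genes of 15 lists, the list name at the right of its first gene. Filled points, COR15A, COR15B and NDB2, were called. All open points missed the threshold, among them 5 of 5 salicylic acid genes left of 0 (median -0.73).

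Several genes with known ties to reactive oxygen or hormone signalling did not separate the lines. PDF1.2 and PDF1.2b, defensins of the jasmonate and ethylene branch of defence, had lower means in both double mutants than in cat2. The test against cat2 was passed in cat2 rbohF (adjusted p = 0.017 and 0.0195) and not in cat2 rbohD (adjusted p = 0.091 and 0.147). PDF1.2 read 9.18, 10.29 and 10.14 in cat2 rbohD and 10.63, 10.46 and 9.39 in cat2 rbohF, while cat2 stood at 11.64, 11.67 and 11.83. The difference between the lines was 0.29 with a 95% interval from -0.48 to 1.07, wide enough to hold a difference of 2-fold. PDF1.2b differed by 0.04 (interval -0.93 to 1.01). These 2 defensins are near-identical in sequence and their signals may mix. GH3.3, which conjugates auxin to amino acids, differed by 0.07 (interval -0.56 to 0.69), with -1.22 and -1.16 against cat2 in cat2 rbohD and cat2 rbohF (adjusted p = 0.147 and 0.0221). CCR2, a cinnamoyl-CoA reductase of lignin synthesis, stood at -1.12 and -1.21 against cat2 and at -0.10 between the lines (interval -0.40 to 0.21). The values against cat2 share their 3 cat2 arrays.

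Among antioxidant genes, 5 of the ascorbate and glutathione cycle were tested and none was called. GR1, the cytosolic glutathione reductase, differed by -0.21 with tight groups, 10.47, 10.45 and 10.41 against 10.24, 10.29 and 10.19 (adjusted p = 0.134). SAPX, the stromal ascorbate peroxidase, differed by 0.23 (adjusted p = 0.236). Peroxidases of the cell wall, which use hydrogen peroxide made outside the cell, gave no call among 3. Prx37 differed by -0.51 (adjusted p = 0.262) and AT5G64120, peroxidase 71 by its RefSeq synonym, by 0.32 (adjusted p = 0.343). BIK1, the kinase that phosphorylates RBOHD on pathogen perception, differed by -0.18 (interval -0.38 to 0.03). Its cat2 rbohD values lay between 8.54 and 8.58 and those of cat2 rbohF between 8.27 and 8.51.

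Of the metabolite lists, those of aliphatic glucosinolates, sugar and anthocyanin gave only positive differences, without calls. The camalexin and tryptophan list, given below, had only negative ones. All 3 tested genes of aliphatic glucosinolate synthesis were positive, from 0.40 to 0.52. BCAT4, an aminotransferase that starts methionine chain elongation, read 10.64, 10.06 and 10.22 in cat2 rbohD and 11.02, 10.78 and 10.68 in cat2 rbohF, just without overlap (adjusted p = 0.12). The vacuolar fructose carriers SWEET17 and SWEET16 differed by 0.35 (adjusted p = 0.0786) and 0.44 (adjusted p = 0.305). SWEET16 read 5.96, 5.92 and 6.97 in cat2 rbohD, so that replicate 3 lay above all of cat2 rbohF. Leaving out that highest value could only enlarge the difference, to 0.78 (adjusted p = 0.00426). That fit called 2.81% of all tested probe sets higher. The anthocyanin enzyme DFR differed by 0.59 with overlapping groups, and the clock gene GI by 0.28 with cat2 rbohD at 7.55 on all 3 arrays. SAG29, a senescence-associated sugar carrier, differed by 0.95 with a spread from 5.94 to 7.93 in cat2 rbohF (adjusted p = 0.225). FMA, a guard cell regulator, differed by 0.41 at a low level (adjusted p = 0.0527), and the second guard cell marker AT1G22690 by -0.21.

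The lists not yet described held no call either, and few of their genes could be tested. In the camalexin and tryptophan list, AT1G26380 read 8.28, 7.90 and 8.00 in cat2 rbohD and 6.86, 7.76 and 7.08 in cat2 rbohF, a difference of -0.83 (adjusted p = 0.071), and AT2G04400 differed by -0.22. The groups of AT1G26380 did not overlap, with replicate 2 of cat2 rbohF closest to cat2 rbohD. The 3 tested genes of pattern-triggered immunity, WRKY6, WRKY22 and BIK1, ran from -0.29 to -0.18. Jasmonate synthesis and response gave 0.10 for OPCL1, an enzyme of jasmonate synthesis, and -0.10 for the thionin THI2.1. EIN3, the main transcription factor of ethylene signalling, differed by -0.11 and UGT74B1 of glucosinolate synthesis by 0.18. The iron-response regulator PYE differed by -0.37 (adjusted p = 0.19), the ATP sulfurylase APS3 by 0.19 and WES1, an auxin-conjugating enzyme, by 0.21. Of the phenylpropanoid list, HCT differed by -0.12 and BGLU46 by 0.17.

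Where a probe set differed between the double mutants, the cat2 level usually lay with cat2 rbohD. Of the 120 higher probe sets, the cat2 mean lay nearer to cat2 rbohD in 111 (92.5%), and of the 147 lower in 136 (92.5%). Relative to cat2, the 120 had a median of -0.01 in cat2 rbohD and 0.51 in cat2 rbohF, and the 147 a median of -0.08 and -0.74. These counts describe the called probe sets and carry no test, since the compared groups share arrays. The same share over all tested probe sets is not given here, so 92.5% cannot be taken as particular to the called ones. Over all tested probe sets, 29 (0.209%) were called between cat2 rbohD and cat2 and 2273 (16.4%) between cat2 rbohF and cat2.

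**Figure D5:**
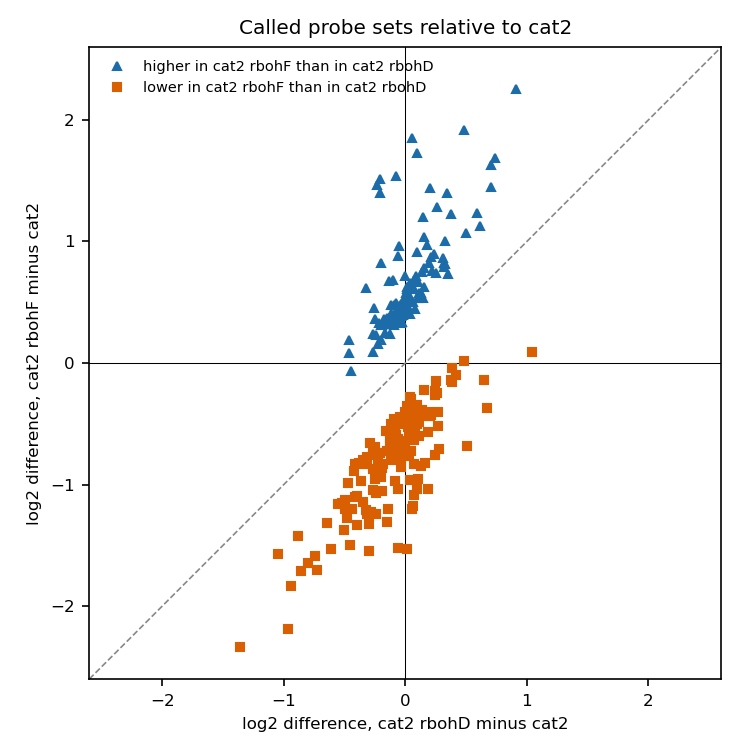
The called probe sets other than 248719_at, with the log2 difference from cat2 in cat2 rbohD (x axis) and in cat2 rbohF (y axis). The dashed line marks equal differences. Points stretch along the y axis, with medians of 0.51 (higher, triangles) and -0.74 (lower, squares), and crowd near 0 on the x axis (medians -0.01 and -0.08). Both axes use the same cat2 arrays.

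In 20 called probe sets the cat2 mean lay nearer to cat2 rbohF, in some of them about midway between the lines. Of the 20, only 248719_at was also called between cat2 rbohD and cat2. Next in size of the difference between the lines came the unnamed 245276_at. That probe set read 7.67, 7.72 and 7.84 in cat2 rbohD, 6.66, 6.98 and 6.48 in cat2 rbohF and 7.03, 7.08 and 7.11 in cat2 (difference -1.04, adjusted p = 0.019). Only 5 of the 20 were named, all by locus code. Of these, AT4G33040 read 7.28, 7.43 and 7.32 in cat2 rbohD and 6.79, 6.97 and 6.86 in cat2 rbohF. Its cat2 mean of 6.86 lay at the cat2 rbohF mean of 6.87, and the fall was 0.47 in size (difference -0.47, adjusted p = 0.048). AT2G17710 (-0.54), AT5G60680 (-0.52), AT1G72700 (-0.51) and AT3G54250 (0.39) made up the rest, with cat2 close to the middle in AT1G72700 and AT3G54250.

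On many called probe sets the same array of a line lay nearest to the other line. Replicate 2 of cat2 rbohF was the one nearest to the cat2 rbohD mean in 82 of the 120 higher and 99 of the 147 lower probe sets. Replicate 3 of cat2 rbohD was the one nearest to the cat2 rbohF mean in 54 and 97 of them. As a measure of RNA integrity, the log2 signal of 5' control probe sets was subtracted from that of the 3' ones. For GAPDH this 3' to 5' log2 difference read 0.81, 0.82 and 0.95 in cat2 rbohD and 0.87, 0.88 and 0.99 in cat2 rbohF. For ubiquitin it read 1.21, 1.28 and 1.25 in cat2 rbohD and 1.27, 1.34 and 1.24 in cat2 rbohF. Replicate 3 had the highest GAPDH value in both lines but not the highest ubiquitin value in either. The part of RNA quality in the results was not tested.

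A further 59 probe sets differed at least 2-fold without being called, 30 higher and 29 lower. Of these, 47 had groups that did not overlap, beside 26.0% of all tested probe sets. They were picked for a large difference, which itself favours groups apart, so this count supports no missed change. The named ones with the largest size, picked after their values were seen, were AT4G17470 at 1.89 (adjusted p = 0.0526) and AT4G22470 at 1.62 (adjusted p = 0.0555) beside LTI30, and AT2G44240 at -1.48 (adjusted p = 0.0655) and AT3G48640 at -1.31 (adjusted p = 0.0727) beside AT5G51440 and AT5G48570. AT4G17470 passed without cat2 rbohD replicate 3, with a difference of 2.41 (adjusted p = 0.00662), where 2.81% of all tested probe sets were called higher. OSM34, an osmotin-like protein, had a difference of 1.25 but overlapping groups, with an SD of 1.29 within cat2 rbohD (adjusted p = 0.235).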

How the data were processed

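The authors deposited 1 log2 value per probe set and array. Per the submitters' processing notes these values come from GCRMA (version not given in the sources used here). This method makes the distributions of the arrays alike and so hides any shift common to most transcripts. Array medians lay between 6.05 and 6.12.

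Of 22810 probe sets, 64 controls were left out. A probe set was tested where its third-highest of 9 values exceeded 5.14, the 40th percentile. Limma 3.58.1 in R 4.3.3 (lmFit, eBayes) was fitted to all 9 arrays with 1 mean per genotype and 6 residual degrees of freedom, two-sided, with Benjamini-Hochberg adjustment over the 13888 tested and calls at an adjusted p under 0.05. The number of arrays limits the precision, and the median standard error was 0.10. The fit was also run on simulated data in which all arrays had the same spread for a probe set. The real arrays differ in spread between the lines, so that run does not cover this and nothing is drawn from it.

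The annotation gave 1 gene for 13513 probe sets, several genes for 503, and left 8730 unlisted. Current symbols came from a RefSeq table (TAIR10.1), and the probe set with the highest mean stood for a gene. Of 464 loci in 33 lists, 81 had a probe set of 1 gene and 70 were tested. Named genes were the 12 largest rises and falls among called genes whose groups do not overlap, up to 4 called members per list, or else the 2 of lowest p, and the 2 largest unnamed probe sets in each direction. The members and lists were chosen with earlier results of these data known. Genes named beyond this rule were picked after their values were seen. Replicate numbers were not used as pairs. Alternatives were other filters, normalizations and variance models, the 6 compared arrays alone, the replicate block and each array left out.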

Additional observations from a re-analysis of the deposited data

How the results depend on the processing

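With all 9 arrays 267 probe sets were called and 32 of them differed at least 2-fold. Leaving out each array in turn gave 1 to 1065 calls and 1 to 135 at 2-fold. Without a filter the counts were 164 and 19, with a filter at the 60th percentile 455 (38 at 2-fold), with array weights 703 and 77, with 1 weight per genotype 127 and 18, and with only the 6 compared arrays 2 and 2. With the replicate number as a block 393 were called, 207 of them shared with the fit without it, and 56 reached 2-fold. The named AT2G39920, cwINV6, CYTC6A, NOL, BGLU44, GLR2.8 and BGLU15 were not called with the block. Deviations of same-numbered cat2 rbohD and cat2 rbohF arrays correlated at -0.113, 0.25 and 0.155, so not every pair passed 0.1 and the numbers were not taken to pair the compared groups. The same correlations were 0.142, 0.15 and 0.171 between cat2 and cat2 rbohF and -0.235, 0.011 and 0.157 between cat2 and cat2 rbohD. Normalizing by quantiles again turned the split of 120 higher and 147 lower into 157 and 127, and centring on the median into 129 and 132. Signs of uncalled genes near 0 turned when single arrays were left out, AT2G21640 from 0.09 to -0.01 without cat2 rbohD replicate 3, among others. Of the genes the rule names 4 turned, over ranges of -0.05 to 0.68 for PDF1.2 (-0.05 without cat2 rbohD replicate 1), -0.31 to 0.59 for PDF1.2b (-0.31 without cat2 rbohD replicate 1, -0.21 and -0.25 without cat2 rbohF replicates 1 and 2), -0.24 to 0.24 for GH3.3 (-0.24 without cat2 rbohD replicate 1) and -0.45 to 0.14 for THI2.1 (0.14 without cat2 rbohD replicate 2, 0.06 without cat2 rbohF replicate 2). The cause of these changes was not tested. The share of called probe sets with cat2 nearer to cat2 rbohD was 92.5%, and 93.8% among those at 2-fold. Probe sets near the array's floor have compressed differences, and 17 called ones had a group mean under 5.14.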

Other observations

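Genes encoded in the plastid genome, added as a list after the data were seen, leaned toward cat2 rbohF without a call. Of 64 tested, 54 had a positive difference, 12 had groups that did not overlap (beside 26.0% of all tested probe sets), and none was called by limma, with 9 at an unadjusted p under 0.05. The median was 0.21, from -0.35 for psaC, a photosystem I subunit, to 0.91 for rpl20, a ribosomal protein. Without cat2 rbohD replicate 3 the list leaned less, with 46 positive, a median of 0.07 and no call. Plastid ribosomal protein genes were positive in 7 of 7 with the stem rpl and 7 of 7 with the stem rps, with that array and without it. The median level of the list read 10.51, 10.30 and 10.10 in cat2 rbohD and 10.75, 10.36 and 10.44 in cat2 rbohF, so that the groups overlapped. Plastid genes are transcribed in clusters and are not independent of each other.

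Neighbouring genes were called together in 4 of 2209 tested pairs of adjacent genes, each pair with 1 sign. The pairs were COR15B and COR15A (0.93 and 1.73), AT1G26410 and AT1G26420 (-0.79 and -0.84), AT3G09010 and AT3G09020 (-0.64 and -0.52), and cwINV6 and AT5G11930 (-0.98 and -0.65). Related neighbours can share probe signal, and this was not tested. The 26 tested UDP-glucosyltransferase genes with the stem UGT held no call, with a median of 0.04 and a range from -1.07 to 0.58. Over all tested probe sets 1.92% were called, so the lack of a call among 26 says little about the family.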
